A study of Homo sapiens with 4 samples.

Results

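The 9 chemokine genes described here are CXCL1, CXCL2, CXCL3, CXCL5, CXCL6, CXCL8, CXCL16, CCL2 and CCL20, chemokines made by tumor epithelium. They were taken from the deposited table by gene symbol, with CXCL8 found under its current symbol, and are 9 of its 26255 symbols. In these libraries 8 of the 9 were above 0. The RNA came from A549, an established human lung adenocarcinoma cell line, in 4 libraries with 1 library in each group. The acinar tumor and solid tumor libraries hold A549 cells cut out by laser microdissection from acinar-type and solid-type xenograft tumors of immunodeficient mice; in lung adenocarcinoma acinar growth forms glands and solid growth forms sheets. The mix culture and single culture libraries hold GFP-labelled A549 cells sorted from 3D colonies. The mix culture was read from its title as grown with cancer-associated fibroblasts (CAFs), which are fibroblasts of the tumor stroma, and the single culture as grown without. The sources used here do not give the mouse strain, its age, the source of the CAFs or the number of animals. Since each group is 1 library, no difference below was checked by a replicate and none carries a p-value.

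Chemokines are small secreted proteins that guide leukocytes along their gradients. CXCL1, CXCL2, CXCL3, CXCL5, CXCL6 and CXCL8 carry the ELR motif before their paired cysteines, bind CXCR2 (CXCL6 and CXCL8 also CXCR1) and attract neutrophils. CCL2 attracts monocytes through CCR2, and CCL20 attracts CCR6-bearing lymphocytes and dendritic cells. CXCL16 is made as a membrane-anchored protein that binds CXCR6 and is released by the proteases ADAM10 and ADAM17. In epithelial cells most of these genes are induced through NF-κB by signals such as IL-1 and TNF, and several of their mRNAs are short-lived.

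Values are scaled counts, that is the deposited values, which behave as fragment counts scaled by library, divided by 1 constant common to all libraries, which changes no ratio. Depth came to an estimated 6630000 fragments in the acinar tumor, 7270000 in the solid tumor, 12180000 in the mix culture and 10970000 in the single culture. All 9 genes had whole fragment numbers in every library. Intervals are exact 95% intervals on those fragments, Poisson for a level and conditional binomial (Clopper-Pearson) for a fold, and cover counting error only. All 13 epithelial and A549 marker genes checked were measured. KRT8, a keratin gene, had 4507 and 4061 scaled counts in the acinar and solid tumor and 2543 and 2451 in the mix and single culture. EPCAM, another epithelial gene, was far lower in the cultures, with 28.1 and 20.3 in the tumors and 2.09 and 2.31 in the cultures, in the same orders. GCLM went the other way, with 45.9 and 39.4 in the tumors and 111 and 93.1 in the cultures. Of the 13, 3 were at least 2-fold higher in both tumors than in both cultures, where 9.67% of all genes were. In the other direction 1 was lower, where 8.22% were. In these bulk libraries fewer expressing cells and less RNA per cell cannot be told apart.

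The promoter sequences of 7 of the 9 genes were in the RefSeq promoter table (GRCh38.p14, from 250 bases before to 50 after the start), and 5 are shown because the results turn on their genes. CXCL1 (chr4:73869143-73869442, plus strand), CXCL8 (chr4:73740319-73740618, plus strand) and CXCL5 (chr4:73998628-73998927, minus strand) are the ELR genes with the highest scaled counts, not corrected for length. CXCL6 (chr4:73836428-73836727, plus strand) is the one listed at 0, and CCL20 (chr2:227813592-227813891, plus strand) the one that set both tumors apart from both cultures. Capitals mark GGAATTTCC, an NF-κB-type word, in the CXC promoters, and a match to the NF-κB consensus in CCL20.
CXCL1: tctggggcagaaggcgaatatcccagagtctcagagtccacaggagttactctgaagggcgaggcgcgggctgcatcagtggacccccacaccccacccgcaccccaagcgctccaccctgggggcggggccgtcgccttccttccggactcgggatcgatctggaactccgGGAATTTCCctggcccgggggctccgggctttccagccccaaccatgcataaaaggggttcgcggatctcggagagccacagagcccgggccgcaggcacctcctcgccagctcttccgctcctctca
CXCL8: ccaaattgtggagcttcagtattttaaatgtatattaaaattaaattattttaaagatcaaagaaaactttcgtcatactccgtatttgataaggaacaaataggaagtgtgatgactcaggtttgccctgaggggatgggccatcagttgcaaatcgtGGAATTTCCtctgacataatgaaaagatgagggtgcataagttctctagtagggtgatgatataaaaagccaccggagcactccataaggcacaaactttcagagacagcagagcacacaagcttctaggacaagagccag
CXCL5: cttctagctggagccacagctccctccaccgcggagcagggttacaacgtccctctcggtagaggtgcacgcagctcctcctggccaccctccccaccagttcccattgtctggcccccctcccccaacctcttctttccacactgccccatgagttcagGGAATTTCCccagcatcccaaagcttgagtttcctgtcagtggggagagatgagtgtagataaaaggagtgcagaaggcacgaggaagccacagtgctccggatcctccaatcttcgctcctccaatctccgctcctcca
CXCL6: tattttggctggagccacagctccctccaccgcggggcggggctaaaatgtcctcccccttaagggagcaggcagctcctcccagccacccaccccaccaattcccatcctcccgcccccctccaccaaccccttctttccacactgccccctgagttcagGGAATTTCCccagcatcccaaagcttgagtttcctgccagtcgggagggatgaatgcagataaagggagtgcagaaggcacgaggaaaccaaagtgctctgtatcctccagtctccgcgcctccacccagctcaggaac
CCL20: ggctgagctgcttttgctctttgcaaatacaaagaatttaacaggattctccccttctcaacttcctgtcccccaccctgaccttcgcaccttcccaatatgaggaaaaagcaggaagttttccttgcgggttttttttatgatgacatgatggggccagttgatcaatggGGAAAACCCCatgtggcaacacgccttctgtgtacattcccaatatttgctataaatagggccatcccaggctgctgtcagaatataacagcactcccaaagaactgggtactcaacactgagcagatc

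The word GGAATTTCC, searched on both strands and picked after the promoters had been read, stood in all 6 ELR promoters, between 77 and 91 bases before the start. It was in 162 of the 35116 promoters of the table, or 0.461%. CCL20 lacked that word, and its match to the wider NF-κB consensus began 79 bases before the start. All 7 promoters held a match to that wider consensus, as did 14.0% of all promoters, and in CXCL1, CXCL2, CXCL3, CXCL5 and CXCL6 it overlapped GGAATTTCC. In CXCL8 the match was GGAGCACTCC, which began 17 bases before the start, apart from its GGAATTTCC at 91 bases. CXCL8 and CCL20 also had TATAAA, 31 and 29 bases before the start, which 11.5% of promoters held. Of the 7, CXCL8 had the AP-1 word TGANTCA (137 bases before the start, in 7.71% of promoters). Aligned end to end, CXCL5 and CXCL6 shared 251 of 300 promoter bases, CXCL1 and CXCL3 shared 254, and CXCL1 and CXCL8 shared 144. For scale, CCL20, on another chromosome, shared between 147 and 161 bases with each of the 6 ELR promoters. A match is a description of these letters and not of binding.

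CXCL5 was the highest of the 9 in every library. It had 2371 scaled counts in the acinar tumor, 1302 in the solid tumor, 1594 in the mix culture and 2171 in the single culture. It gave 83.3% of the fragments of the 9 genes in the acinar tumor (82.8 to 83.9) and 86.7% in the solid tumor (86.0 to 87.3). The share was 80.4% in the mix culture (79.9 to 80.9) and 86.9% in the single culture (86.5 to 87.3), so the acinar tumor and the mix culture had the lower shares within their settings. Together the 9 genes took 0.277% of all fragments in the acinar tumor, 0.148% in the solid tumor, 0.202% in the mix culture and 0.256% in the single culture.

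Levels of different genes were ordered per kilobase of the longest protein-coding GENCODE v29 transcript, since the sources used here do not give the authors' gene models. On the scale of scaled counts per kilobase, CXCL5 led in the acinar tumor at 934, followed by CXCL1 at 142, CXCL8 at 114, CXCL2 at 46.6 and CXCL3 at 28.8. CCL2 followed at 20.5, CCL20 at 16.1 and CXCL16 at 3.35, and the intervals of CXCL3 and CCL2 and of CCL2 and CCL20 overlapped. In the solid tumor CXCL8, at 29.2, and CXCL2, at 26.4, overlapped, and so did CXCL16, at 9.50, and CCL20, at 7.83, with CCL2 below them at 3.59. In the mix culture CXCL2, at 55.6 per kilobase, and CXCL8, at 49.7, overlapped. In the single culture CXCL8, at 39.3, overlapped CXCL2, at 34.6, and CXCL3, at 26.6, overlapped CCL2, at 24.3. CXCL5 and CXCL1 held the first and second places in all 4 libraries. CXCL8 was clear of CXCL2 in the acinar tumor alone. CXCL16 was last of the detected genes there, CCL2 in the solid tumor and CCL20 in both cultures.

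**Figure D1:**
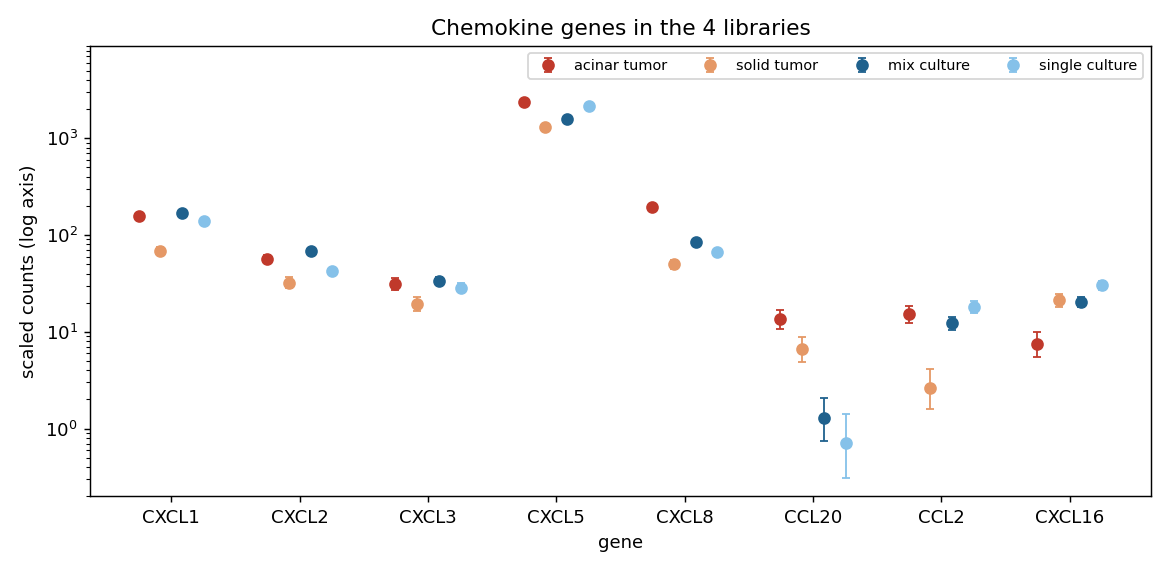
Scaled counts of the 8 detected chemokine genes in each of the 4 libraries, on a log axis, with exact 95% Poisson intervals for counting error. The solid tumor is the lowest of the 4 libraries for CXCL1, CXCL2, CXCL3, CXCL5, CXCL8 and CCL2, and CCL20 is higher in both tumors than in both cultures. CXCL6 is listed at 0 in all libraries and is left out.

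CXCL6, whose product is the closest relative of CXCL5, was listed at 0 in all 4 libraries. Under the limit of 3 fragments that a count of 0 allows (one-sided 95%), its level was up to 0.465 scaled counts in the acinar tumor, 0.420 in the solid tumor, 0.242 in the mix culture and 0.267 in the single culture. The two-sided exact intervals used elsewhere end higher, at 0.572, 0.516, 0.297 and 0.328 scaled counts in that order. Its transcript shared no exact 50-base stretch with that of any other of the 9 genes. The ELR genes lie in 1 row on chromosome 4, where the protein-coding order is CXCL8, CXCL6, PF4V1, CXCL1, PF4, PPBP, CXCL5, CXCL3 and CXCL2. Genes at or near 0 lay between genes with high levels in that row. PF4V1 was listed at 0 throughout, and PF4, the platelet factor 4 gene, had 1 fragment in the mix culture and 0 elsewhere. PPBP, a platelet gene whose product is cut into a neutrophil chemokine, had 4.19 scaled counts in the acinar tumor, and 2.66 in the solid tumor. It had 0 fragments in the mix culture and 2 in the single culture.

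**Figure D2:**
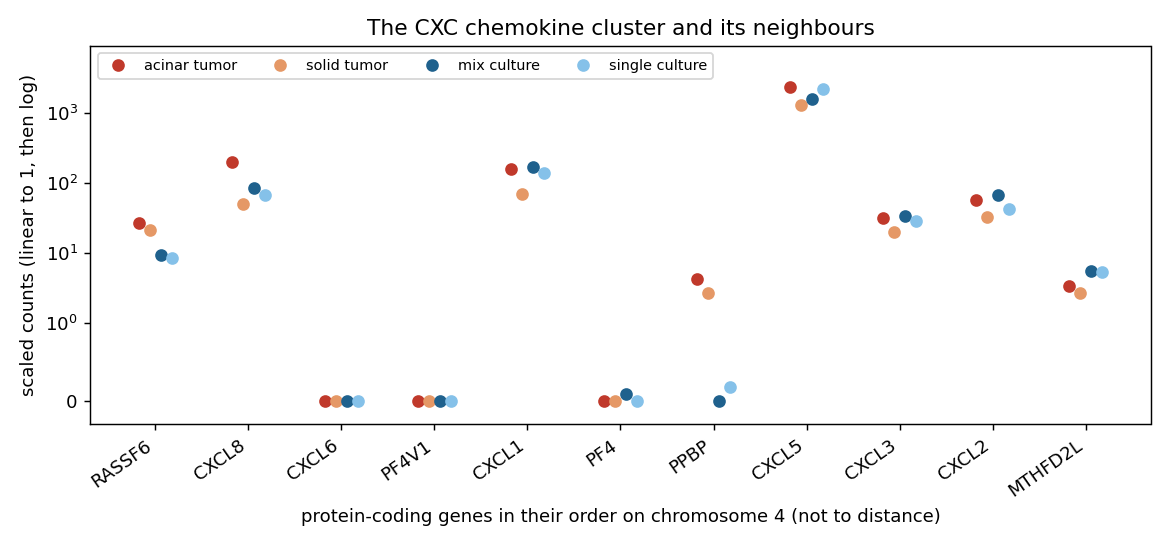
Scaled counts in the 4 libraries for the protein-coding genes of the chromosome 4 CXC cluster and 1 neighbour on each side, in gene order and not to distance (vertical axis linear to 1, then logarithmic). CXCL6, PF4V1 and PF4 lie at or near 0 between CXCL8, CXCL1 and CXCL5, which are between 49.8 and 2371 in every library.

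The first comparison sets acinar against solid tumors, in a study whose title links fibroblast TGF-β signaling to tumor histology. In the acinar tumor the 5 detected ELR chemokine genes and both CC genes were higher and CXCL16 was lower. At or past 2-fold on the log2(scaled count + 1) scale, 3 of the 8 measured genes were higher (CXCL1, CXCL8 and CCL2), where 1.98% of the 13979 genes tested were. On the same scale 1 of the 8 was lower (CXCL16), where 2.55% of all genes were. The median log2 ratio of the 8 was 0.90, against 0.01 over all genes tested.

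CXCL8, the prototype neutrophil chemokine gene, had 195 scaled counts in the acinar tumor, against 49.8 in the solid tumor, a 3.92-fold ratio (3.48 to 4.42). The acinar tumor was the highest of the 4 libraries for this gene, and the solid tumor the lowest. CXCL1 had 156 scaled counts in the acinar tumor, against 68.7 in the solid tumor, or 2.26-fold (2.03 to 2.53). CXCL5 was 1.82-fold higher in the acinar tumor (1.77 to 1.87), at the levels given above. CXCL2 was at 56.7 and 32.2 scaled counts in the acinar and solid tumor, 1.76-fold (1.49 to 2.09). CXCL3 was at 31.0 and 19.6 scaled counts in the same order, 1.58-fold (1.27 to 1.98). The interval of CXCL8 lay above those of the other 4 detected ELR genes, whereas those of CXCL2, CXCL3 and CXCL5 overlapped, as did those of CXCL1 and CXCL2. CXCL1, CXCL2 and CXCL3 are close paralogs, and between 0.573% and 5.73% of the 50-base windows of 1 transcript stood in another, so part of their fragments may have been assigned between them.

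CCL2 had 15.2 scaled counts in the acinar tumor, against 2.66 in the solid tumor, from 98 and 19 fragments, a 5.72-fold ratio (3.47 to 9.90). The solid tumor was the lowest of the 4 libraries for CCL2, below both cultures. CCL20 had 13.5 scaled counts in the acinar tumor, against 6.57 in the solid tumor, 2.05-fold (1.42 to 2.99), and just short of 2-fold once the pseudocount of 1 was added (log2 ratio 0.94). CXCL16 was the exception, with 7.44 scaled counts in the acinar tumor, against 21.1 in the solid tumor, 2.84-fold lower (2.04 to 4.01). The acinar tumor was the lowest of the 4 libraries for CXCL16.

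**Figure D3:**
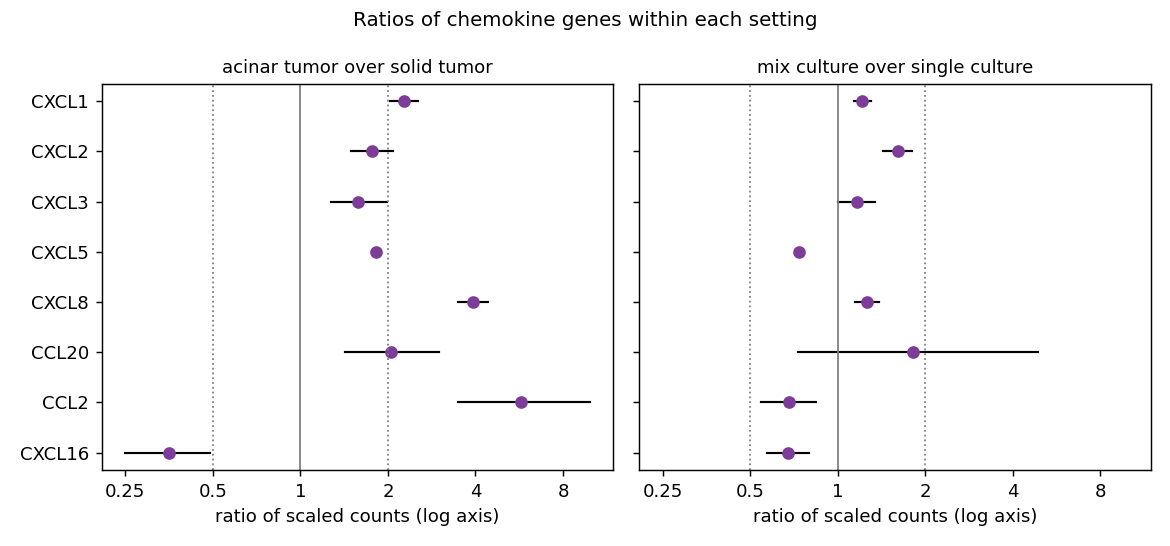
Ratios of scaled counts of the 8 detected chemokine genes, acinar tumor over solid tumor (left) and mix culture over single culture (right), on a log axis with exact conditional binomial 95% intervals; dotted lines mark 2-fold. In the tumors 7 genes lie above 1 and CXCL16 below it, and in the cultures no gene has a ratio past 2-fold in either direction.

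Fibroblasts and monocytes also make CCL2, so their markers were read beside it. The 10 fibroblast markers summed to 88.8 scaled counts in the acinar tumor, 54.1 in the solid tumor, 33.7 in the mix culture and 23.1 in the single culture. LUM, a matrix proteoglycan gene, had 55.4 of these in the acinar tumor and 19.6 in the solid tumor. On the 2-fold scale 2 of 4 measured fibroblast markers (LUM and FAP) were higher in the acinar tumor, where 1.98% of all genes were. Of the same 4, 0 were lower, where 2.55% were. FAP had 14 fragments in the acinar tumor and 3 in the solid tumor, and with a pseudocount of 5 the count higher was 1. COL1A1, a fibrillar collagen gene, had 30.7 in the acinar tumor, 32.3 in the solid tumor, 29.5 in the mix culture and 19.3 in the single culture. POSTN was listed at 0 in all 4 libraries, and COL1A2 and DCN had at most 2 fragments in any. PDGFRA and THY1 were seen in the cultures and not in the tumors. PDGFRA had 14 fragments in the mix culture and 22 in the single culture, THY1 25 and 15, and each had 0 in both tumors. The 12 leukocyte markers summed to 150 scaled counts in the acinar tumor, 253 in the solid tumor, 75.6 in the mix culture and 91.6 in the single culture. CD68 alone gave 113 of these in the acinar tumor and 175 in the solid tumor. PTPRC, another of the 12, had 9 fragments in each tumor, 8 in the mix culture and 9 in the single culture. Of 7 leukocyte markers measured, 0 were higher in the acinar tumor, where 1.98% of all genes were, and 3 lower, where 2.55% were. With a pseudocount of 5 none of the 3 remained past 2-fold (0 of 7). CD14, the monocyte marker, was at 2.64 in the acinar tumor and 9.65 in the solid tumor. It was higher in the sorted A549 cells, at 13.4 in the mix culture and 15.4 in the single culture, so its source here is unclear. ITGB2 was at 3.88 and 11.8 in the acinar and solid tumor, and at 16.4 and 27.8 in the mix and single culture. S100A9 and HLA-DRA were also higher in both cultures than in both tumors. Of 8 measured in any library, 3 were at least 2-fold higher in both tumors than in both cultures, where 9.67% of all genes were. Of the same 8, 2 were lower, where 8.22% were. LYZ, the lysozyme gene, was at 23.9 and 49.4 in the acinar and solid tumor. The 9 endothelial markers summed to 14.6 in the acinar tumor, 1.68 in the solid tumor, 0.805 in the mix culture and 0.711 in the single culture. PLVAP was the 1 measured in the tumors, with 84 fragments in the acinar tumor and 0 in the other libraries. The hosts were mice, and assignment of mouse fragments to human symbols was not tested. The part of these markers in the chemokine values was not tested.

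The second comparison sets A549 cells grown with CAFs against A549 cells grown without. None of the 8 measured genes was at or past 2-fold in either direction, where 0.682% of the 13485 genes tested were higher and 1.74% lower. Within that range the counting intervals of CXCL1, CXCL2, CXCL3 and CXCL8 lay above 1, and those of CXCL5, CXCL16 and CCL2 below it. The median log2 ratio of the 8 was 0.25, against 0.01 over all genes tested.

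CXCL2 had the largest ratio among the ELR genes, at 67.7 scaled counts in the mix culture and 42.1 in the single culture, 1.61-fold (1.43 to 1.80). CXCL8 was at 84.8 and 67.0 scaled counts in the mix and single culture, 1.27-fold (1.15 to 1.39). CXCL1 was at 170 and 140 scaled counts in the same order, 1.22-fold (1.14 to 1.30). CXCL3 was at 33.3 and 28.6, 1.16-fold, with an interval that began just above 1 and ended at 1.35. CXCL5 went the other way, 1.36-fold lower in the mix culture (1.34 to 1.39). CCL2 was at 12.2 scaled counts in the mix culture and 18.0 in the single culture, 1.47-fold lower (1.19 to 1.83). CXCL16 was at 20.5 and 30.4 in the mix and single culture, 1.49-fold lower (1.26 to 1.76), so it was the lower gene in both comparisons. CCL20 was at 1.29 and 0.711 scaled counts, from 16 and 8 fragments, and its interval included 1 (1.81-fold, 0.732 to 4.89).

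Setting both tumors beside both cultures, CCL20 was the gene of the 9 that separated them. Its levels were 13.5 and 6.57 scaled counts in the acinar and solid tumor, against 1.29 and 0.711 in the mix and single culture. The lower tumor was 5.10-fold above the higher culture (2.84 to 9.64), and the higher tumor 19.0-fold above the lower culture (9.21 to 45.3). At least 2-fold apart in all pairs of a tumor and a culture, 1 of the 8 genes was higher in the tumors, where 9.67% of 14561 genes were, and 0 were lower, where 8.22% were. A count of 1 of 8 is near that background. Growth in an animal, microdissection or sorting, and depth all differ between these libraries and cannot be told apart.

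The other 7 detected genes overlapped between tumors and cultures. For 6 of them (CXCL1, CXCL2, CXCL3, CXCL5, CXCL8 and CCL2) the solid tumor was the lowest of the 4 libraries, as it was for 24.2% of 14561 genes, a reading made after the values were seen. CCL2 was 1.24-fold higher in the acinar tumor than in the mix culture (0.953 to 1.61) and 1.19-fold lower than in the single culture (0.929 to 1.53), both intervals including 1. In the solid tumor it was 4.61-fold lower than in the mix culture (2.85 to 7.86) and 6.79-fold lower than in the single culture (4.24 to 11.5). CXCL1 in the acinar tumor was 1.09-fold lower than in the mix culture and 1.11-fold higher than in the single culture, and in the solid tumor 2.47-fold lower than in the mix culture and 2.03-fold lower than in the single culture. For CXCL8 the acinar tumor was above both cultures as well, 2.30-fold over the mix culture (2.12 to 2.50) and 2.91-fold over the single culture (2.66 to 3.19). CXCL16 in the acinar tumor was 2.75-fold lower than in the mix culture (2.01 to 3.82) and 4.08-fold lower than in the single culture (3.01 to 5.65).

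Of the 37 other chemokine genes looked up, 7 reached 1 scaled count in any library and 17 were listed at 0 in all 4. Among these 37, CCL26, an eosinophil chemokine gene, had the highest level. It was at 1.24 and 1.68 scaled counts in the acinar and solid tumor, against 7.17 and 5.33 in the mix and single culture, so the cultures lay above both tumors. CX3CL1, the membrane-anchored chemokine that binds CX3CR1, had 3.88 scaled counts in the acinar tumor, against 1.12 in the solid tumor, 3.46-fold (1.51 to 8.89, from 25 and 8 fragments). It was at 0.161 and 0.800 in the mix and single culture. CCL24, CCL28, CXCL17 and CCL5 stayed between 0.0805 and 2.17 scaled counts across the libraries. On the 2-fold scale 1 of the 7 measured in the tumor pair was higher in the acinar tumor (CX3CL1), where 1.98% of all genes were. Of the same 7, 0 were lower, where 2.55% were. In the culture pair 0 of the 1 measured was past 2-fold, where 0.682% of all genes were higher and 1.74% lower. With a pseudocount of 5 the count higher in the acinar tumor was 0.

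Among 22 chemokine receptor genes 4 reached 1 scaled count. CXCR1 and CXCR2, the receptors of the ELR chemokines, and CCR2, the receptor of CCL2, were listed at 0 in all 4 libraries. ACKR3, a scavenging receptor for CXCL12, had 4.65 scaled counts in the acinar tumor, against 1.68 in the solid tumor, 2.77-fold (1.38 to 5.94), and at 4.03 and 5.33 in the mix and single culture. CCR7, a lymph node homing receptor, was at 0.465 and 1.26 in the acinar and solid tumor and at 3.86 and 2.49 in the mix and single culture. CXCR4 was between 0.805 and 1.86 and CCR10 between 0.310 and 1.16. On the 2-fold scale ACKR3 was the 1 receptor of 3 measured that was higher in the acinar tumor, where 1.98% of all genes were. Of the same 3, 0 were lower, where 2.55% were. Of 4 receptors measured in the cultures 0 were past 2-fold, where 0.682% of all genes were higher and 1.74% lower. With a pseudocount of 5 ACKR3 was short of 2-fold, leaving 0.

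All 15 genes of the NF-κB list were measured, which holds subunits, their inhibitors, the IκB kinase genes and BIRC3. In the acinar tumor 14 of the 15 had log2 ratios above 0 (median 0.31, against 0.01 over all genes tested). Past 2-fold 3 were higher, where 1.98% of all genes were, and 0 lower, where 2.55% were. RELB, an NF-κB subunit gene that is itself an NF-κB target, had 52.4 scaled counts in the acinar tumor, against 19.9 in the solid tumor, 2.64-fold (2.16 to 3.23). TNFAIP3, encoding the feedback inhibitor A20, was at 80.0 and 32.9 in the same order, 2.43-fold (2.08 to 2.85). BIRC3, an apoptosis inhibitor gene induced by NF-κB, was at 97.7 and 44.1, 2.22-fold (1.93 to 2.55). NFKBIA, the IκBα gene, was at 178 and 120 scaled counts, 1.48-fold (1.36 to 1.62). In the cultures 7 of the 15 were above 0 (median -0.09), with RELB at 30.3 scaled counts in the mix culture and 21.3 in the single culture. There 0 of the 15 were past 2-fold in either direction, where 0.682% of all genes were higher and 1.74% lower.

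Genes of the inputs to NF-κB (IL-1, TNF, IL-17 and Toll-like receptor signaling) showed no such direction. In the tumors 5 of 14 measured had log2 ratios above 0 (median -0.13). At 2-fold 0 were called higher in the acinar tumor, where 1.98% of all genes were, and 1 lower, where 2.55% were. In the cultures the calls among 12 measured were 0 higher and 1 lower in the mix culture (median -0.02). Over all genes the shares were 0.682% higher and 1.74% lower. With a pseudocount of 5 both counts of genes lower were 0. IL1A was at 0.775 and 0.280 scaled counts in the acinar and solid tumor and at 0.0805 and 0.178 in the mix and single culture. IL1B was at 1.09 in the acinar tumor and 2.94 in the solid tumor, 2.71-fold lower by 7 and 21 fragments, and at 0.725 and 0.800 in the mix and single culture. ADAM10, which releases CXCL16, was at 160 and 157 scaled counts in the acinar and solid tumor (1.02-fold, 0.934 to 1.11). It was at 179 and 224 in the mix and single culture, 1.25-fold lower (1.18 to 1.33). ADAM17 was at 24.3 and 22.0 in the tumors and at 57.4 and 63.7 in the cultures, in the same orders. Of 9 measured processing and presentation genes, 0 were past 2-fold in the tumors, where 1.98% of all genes were higher and 2.55% lower. In the mix culture 0 were higher, where 0.682% of all genes were, and 1 lower, where 1.74% were. This was DPP4, the peptidase that trims many chemokines, at 1.21 scaled counts in the mix culture and 6.31 in the single culture, 5.22-fold lower (2.96 to 9.82). With a pseudocount of 5 it was short of 2-fold, leaving 0.

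**Figure D4:**
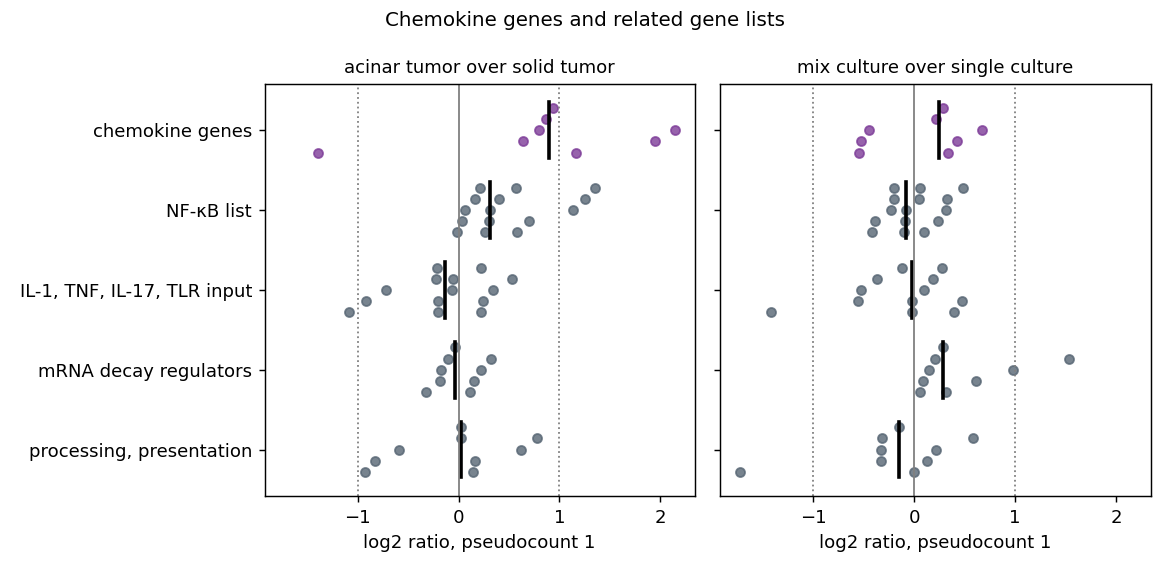
Log2 ratios with a pseudocount of 1 for each measured gene of the chemokine genes and 4 related lists, acinar tumor over solid tumor (left) and mix culture over single culture (right). Bars mark list medians and dotted lines 2-fold; in the tumors the medians are 0.90 for the chemokine genes and 0.31 for NF-κB genes.

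The 5 detected ELR genes had a further feature in their mRNAs. TATTTAT, the core word of AU-rich elements, which mark short-lived mRNAs, was counted in the longest coding transcript of each gene with overlapping matches allowed. It stood 8 times in CXCL2, 4 times each in CXCL1 and CXCL8, 3 times each in CXCL3 and CXCL5, and 1 time in CCL20. It was not found in the CXCL6, CXCL16 and CCL2 transcripts. Thus 5 of the 9 had 3 or more, as did 1.36% of 7521 protein-coding genes with transcripts of 741 to 2538 bases, the range of the 9. The 9 regulators of such mRNAs were all measured (median log2 ratio -0.04 in the tumors). Past 2-fold 0 were called in the tumors, where 1.98% of all genes were higher and 2.55% lower. In the cultures all 9 had log2 ratios above 0, from 0.05 to 1.54 (median 0.29, against 0.01 over all genes tested). Of the 9, 0 were past 2-fold lower in the mix culture, where 1.74% of all genes were, and 1 higher, where 0.682% were. This was DUSP1, a phosphatase gene that restrains p38 signaling, at 576 scaled counts in the mix culture and 198 in the single culture, 2.91-fold.

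The 5 genes outside the set whose pattern over the 4 libraries was most like that of CXCL8 were MSC, RELB, TCF7, LOC400706 and MB21D2. Likeness was the Euclidean distance of log2(scaled count + 1) values, each centred on the gene's own mean, among the 12137 genes that reached 5 scaled counts in a library. The distances were 0.42, 0.43, 0.46, 0.46 and 0.47 in that order. Among the chemokine genes CXCL5 was the nearest to CXCL8, at 1.05 and in place 186, with CXCL2 at 1.10 and CXCL1 at 1.10, while CXCL16 was at 2.77. CXCL1, CXCL2 and CXCL3 were nearer to each other, CXCL2 lying 0.35 from CXCL3 and 0.46 from CXCL1. With 4 libraries such distances describe these values alone.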

How the data were processed

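The authors deposited 1 table (26255 gene symbols, 4 libraries) whose unit is a signal, called raw per the file headers. The values behave as counts of fragments scaled by library: in each, 90.0% to 91.2% of non-zero values lay within 0.05 of a whole number of steps. The steps were 1.39 (acinar tumor), 1.25 (solid tumor), 0.720 (mix culture) and 0.795 (single culture). Build hg19 and the tools Cuffdiff 2.2.1, TopHat2 2.0.13 and Bowtie2 2.2.3 come from the submitters' processing notes, which give no roles here. The sources used here do not give gene models, filters or strand, so fragments of overlapping or near-identical genes are uncertain.

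Here, values were divided by 8.94 (scaled counts), not corrected for length. Log2 ratios used a pseudocount of 1, which understates low genes, over genes at 1 or more in a library compared. Folds are plain ratios. Without molecular identifiers, fragments are not independent molecules. Python 3.11.15, numpy 2.4.6, scipy 1.17.1 and pandas 2.3.3 were used, and the steps were tested on simulated data. Members, gene lists and alternatives were chosen with earlier results of these data known. Named outside the 9 were chemokine and receptor genes at 1 scaled count or more, up to 4 genes per other list past 2-fold at 5 scaled counts or more, 6 key genes and 5 genes most like CXCL8. KRT8, EPCAM, GCLM, COL1A1, COL1A2, DCN, POSTN, FAP, PDGFRA, THY1, CD68, PTPRC, S100A9, HLA-DRA, PF4, PF4V1, CXCR1, CXCR2 and CCR2 were named after their values were seen.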

Additional observations from a re-analysis of the deposited data

Results flagged for a closer look

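CXCL5 and CCL2 differed in opposite directions in the 2 comparisons, which share no library. The ratio of CXCL5 was 1.82 for acinar over solid tumor and 0.734 for mix over single culture. The ratio of CCL2 was 5.72 for acinar over solid tumor and 0.678 for mix over single culture. Their counting intervals lay on opposite sides of 1, but with 1 library a group the difference between the 2 comparisons was not tested.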

How the results depend on the processing

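The counts of chemokine genes past 2-fold in the tumor and culture comparisons stayed within 1.5 times of those reported under all 7 alternatives. These were pseudocounts of 0.1 and 5, no filter, a filter at 5, total-fragment scaling, median-of-ratios scaling and whole-fragment genes only. The median log2 ratio of the chemokine genes ranged from 0.80 to 0.95 in the tumors and from 0.16 to 0.25 in the cultures. With a pseudocount of 0.1 CCL20 was a further gene past 2-fold in the acinar tumor (4 in all). With a pseudocount of 5 the number higher in both tumors than in both cultures was 0, CCL20 falling short on that scale. No single ratio of the 9 genes changed sign among 111 recomputed, and 1 left its counting interval (CCL2 in the tumors, with a pseudocount of 5). Of 420 recomputed counts of the other lists, 30 moved by over 1.5 times, all counts of 3 genes or fewer.

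Over all genes, calls higher and lower in the acinar tumor numbered 478 and 692 at pseudocount 0.1, and 114 and 101 at 5, against 277 and 357. In the mix culture they were 192 and 522, and 33 and 73, against 92 and 234. For tumors against cultures they were 864 and 774 at pseudocount 5, against 1408 and 1197. No paired analysis was possible because each group is 1 library. Depth limits CCL20 in the cultures (16 and 8 fragments) and CCL2 in the solid tumor (19).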
